A study of Homo sapiens with 4 samples.

Results

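The NRF2 and antioxidant defence genes are 41 named genes that code for the transcription factor NRF2 (gene NFE2L2), its inhibitor KEAP1 and the enzymes that remove peroxides, superoxide, quinones and reactive carbonyls or hold iron in a safe form. The genes were taken by name from a written list, with no threshold on their values. That list was chosen with earlier results of these data known. All 41 were listed in an expression table of 19314 genes. A value was given for 40 of them, out of 16595 genes that could be tested. GPX7 was listed with no value and is not described further.

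The study asked which transcripts change when PTPRN, a receptor-type protein of the tyrosine phosphatase family, is knocked down in U87 cells, an established line from a human malignant glioma. The PTP2 group (genotype PTPRN knockdown) holds 2 libraries, and the SCR group holds 2 control libraries. The study's methods describe short hairpins against PTPRN in the pLKO.1 vector and a control hairpin that matches no human coding gene. Its sequencing section names only U87 cells and U87 cells with PTPRN knocked down. That the SCR cells carried the control hairpin is taken from their title. Both knockdown libraries carry the same label, PTP2, so PTPRN loss and any other effect of the hairpin they received cannot be told apart. No label gives the number of days after transfection or whether the libraries of a group came from separate cultures, so p-values measure the spread between these libraries, which may be technical.

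PTPRN was at 12.09 and 11.68 FPKM in the PTP2 libraries and at 84.84 and 85.02 FPKM in the SCR libraries. FPKM is the number of fragments per kilobase of transcript, scaled to 1000000 mapped reads, so levels of different genes can be set side by side. The fall was 7.15-fold (log2 fold change -2.74 ± 0.03 SE), with a limma adjusted p of 0.000148. The growth protocol recorded for the libraries names hCMEC/D3, a brain endothelial line, while every other label gives U87. The 9 endothelial markers summed to between 3.98 and 4.66 FPKM per library and none reached 10. Of 8 U87 and glioma markers, VIM, CD44 and TNC were each above 150 FPKM in all 4 libraries. CHI3L1 was between 29.74 and 93.54 FPKM, NES between 3.12 and 14.24 FPKM and SLC1A3 between 5.81 and 10.23 FPKM. These levels differed between the groups. Mean VIM and CD44 were 2.38-fold and 2.075-fold higher in PTP2, and TNC, CHI3L1 and NES were 2.58-fold, 2.99-fold and 4.18-fold lower. Those 5 of the 8 markers passed a fold of 2 on the log2(FPKM + 1) scale and a limma adjusted p of 0.001, against 6.7% of all genes tested. CDKN2A and MTAP, which lie in a region that U87 cells have lost, were at 0.34 FPKM or less, and the astrocyte markers GFAP and S100B were at 0.55 FPKM or less. Depth, estimated from the steps between low FPKM values, was between 18300000 and 19600000 reads per library.

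NRF2 is made continuously and destroyed continuously. KEAP1 holds it for the CUL3 ubiquitin ligase, and when electrophiles or oxidants modify cysteines of KEAP1, NRF2 escapes, enters the nucleus, pairs with small MAF proteins and binds antioxidant response elements near its target genes. Those targets make and recycle glutathione and thioredoxin, supply NADPH, break down heme and reduce quinones, and high NRF2 activity is a known feature of several tumour types including glioma.

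Short stretches of the promoters are shown first because the antioxidant response element is the sequence through which NRF2 reaches these genes. Promoter windows running from 250 bases before to 50 bases after the start were available in the RefSeq table (GRCh38) for 33 of the 41 genes, and were searched on both strands for the core TGACNNNGC. The core was found in 6 of the 33 windows (18.2%), against 13.6% of all 27305 promoters of the table and 14.5% of the 13258 that belong to genes tested here. Each stretch is written 5′ to 3′ on the gene's own strand with the core in capitals, and the forms with GCNNNGTCA are cores that lie on the opposite strand. All 7 cores that lie before the RefSeq start are given. The windows of ME1 and TXNRD1 hold another that reaches past that start and is not printed. The deposited gene spans can begin farther upstream than the RefSeq start. The cores of GCLM, GSTO1, GSTP1 and ME1 lie inside those spans, and the cores of PGD and TXNRD1 lie before them.
GCLM, chr1:93909446-93909474, minus strand: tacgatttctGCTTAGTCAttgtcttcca
GSTO1, chr10:104254656-104254684, plus strand: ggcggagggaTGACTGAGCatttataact
GSTO1, chr10:104254721-104254749, plus strand: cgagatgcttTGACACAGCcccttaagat
GSTP1, chr11:67583736-67583764, plus strand: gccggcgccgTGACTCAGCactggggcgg
ME1, chr6:83431170-83431198, minus strand: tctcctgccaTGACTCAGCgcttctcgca
PGD, chr1:10398853-10398881, plus strand: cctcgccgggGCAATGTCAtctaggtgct
TXNRD1, chr12:104215670-104215698, plus strand: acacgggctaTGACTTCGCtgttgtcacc

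The cores of GSTP1 and ME1 also contain TGACTCA, the word bound by AP-1 factors, so the letters there are shared by both motifs. GCLM, GSTO1 and TXNRD1 rose with PTPRN knockdown, ME1 and PGD fell, and GSTP1 did not pass the test, as described with each gene below. A match is a description of the letters and not evidence of binding, and the absence of one in a window says only that these letters are not in it.

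Across the 40 genes with a value, 18 were higher and 11 were lower in the PTP2 libraries at a limma adjusted p of at most 0.05, and 11 did not pass the test. These are shares of 45.0% and 27.5%, while 30.8% of all genes tested were called higher, 27.1% lower and 57.9% in either direction. Most of these genes are strongly expressed, with 36 of the 40 at a mean of at least 1 FPKM, 34 at 10 or more and 18 at 100 or more. Among the 11272 genes with a mean of at least 1 FPKM, 41.1% were called higher, 33.5% lower and 74.6% in either direction, so the members' shares lay near that background. The median log2 fold change of the 40 genes was 0.13, against 0.01 over all genes tested and 0.06 over genes with a mean of at least 1 FPKM. The median absolute log2 fold change was 0.46, against 0.25 and 0.38 over the same sets. RNA came from whole cultures, so fewer cells that express a gene and less RNA per cell cannot be told apart.

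At the study's own thresholds, a fold of at least 2 with an adjusted p of at most 0.001, and with the fold taken on the log2(FPKM + 1) scale, TXNRD1, AKR1C1 and GSTO1 were higher and AKR1C3 and FTH1 were lower. These 5 are 12.5% of the 40 genes. AKR1B10 and ME1 passed the same adjusted p and were lower by more than 2-fold in mean FPKM, but not on that scale. Of all genes tested 2.63% were called higher and 4.06% lower by the same limits, 6.69% together, and of genes with a mean of at least 1 FPKM 3.79% and 5.78%, 9.57% together. With any 1 of the 4 libraries left out, 0 of all 16595 genes passed both limits in limma, so those fits say nothing about the 5 genes at these limits. In each of those fits 4 of the 40 genes were higher and 2 or 3 lower by at least 2-fold with an unadjusted p below 0.05. The PTP2 and SCR values did not overlap for 37 genes (92.5%), 24 of them higher and 13 lower in PTP2. Among all genes tested 39.7% were higher and 35.8% lower without overlap (75.6% together), and among those with a mean of at least 1 FPKM 49.0% and 40.3% (89.2% together). The smallest p that an exact permutation test could reach with 2 libraries against 2 is 0.333, so none was run.

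**Figure D1:**
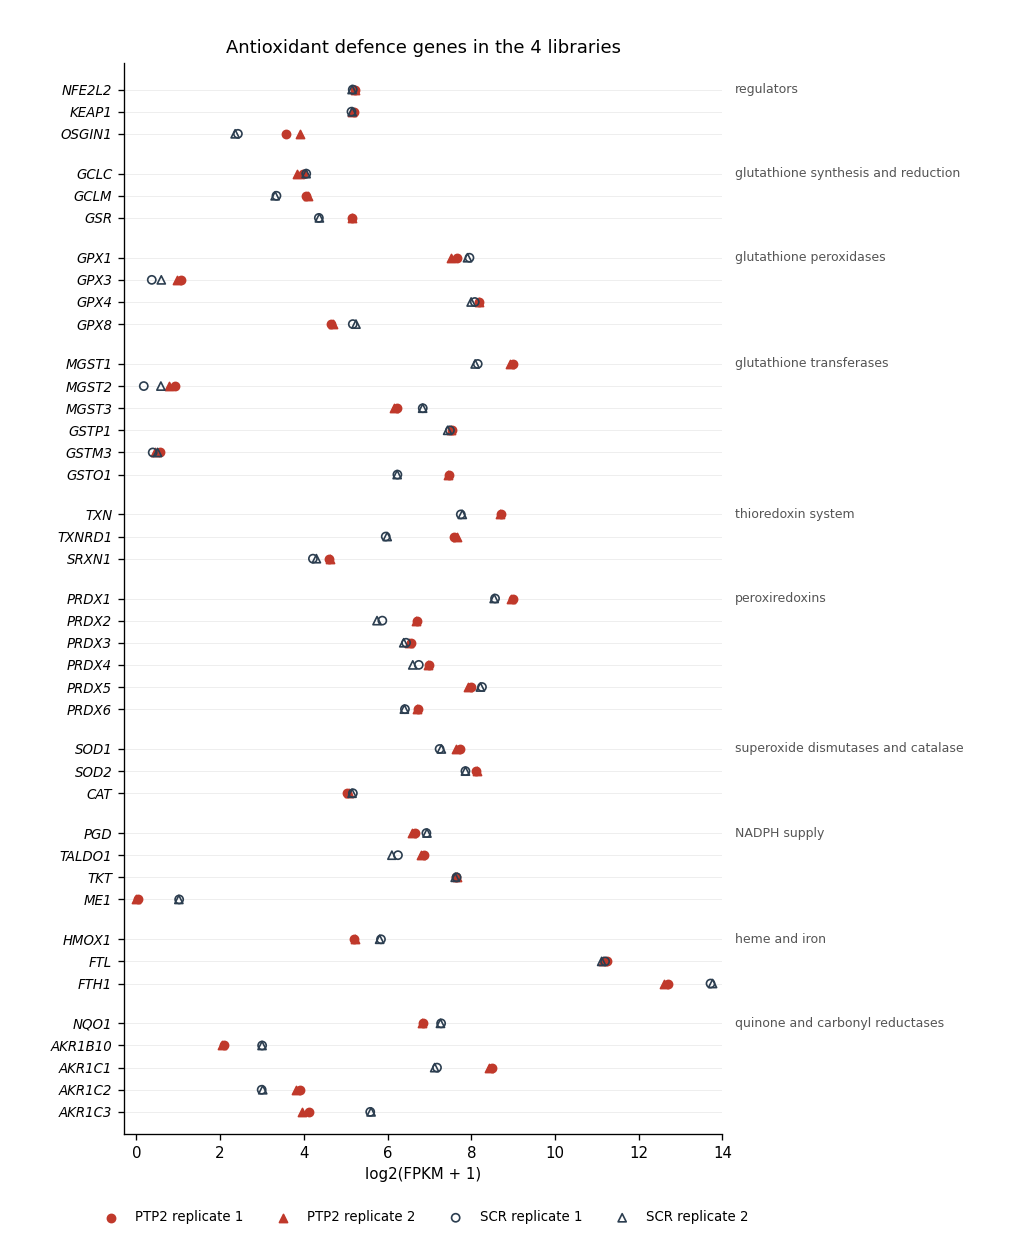
Level of each of the 40 antioxidant defence genes with a value, as log2(FPKM + 1), in the 2 PTP2 libraries (filled red) and the 2 SCR libraries (open), grouped by role. FTH1 lies farthest right in every library, ME1 lies near 0 in the PTP2 libraries, and the symbols of a group sit close together beside the distance between groups for genes such as TXNRD1, GSTO1 and AKR1C3.

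Each role group holds 3 to 6 genes with a value, so counts called within a role are small. They stand beside the 41.1% higher and 33.5% lower among all genes with a mean of at least 1 FPKM, and no role was tested as a set. The regulators are described first. NFE2L2, which codes for NRF2 itself (chr2:177230303-177265131, GRCh38, minus strand, Gene ID 4780), was at 36.33 and 36.48 FPKM in the PTP2 libraries and at 34.97 and 34.57 FPKM in the SCR libraries. The groups did not overlap, yet the log2 fold change was 0.06 ± 0.03 (SE) and did not pass the test (limma adjusted p = 0.138). KEAP1, the adaptor that marks NRF2 for destruction (chr19:10486120-10503378, minus strand, Gene ID 9817), was at 35.81 and 34.70 FPKM in PTP2 and at 34.22 and 34.64 FPKM in SCR. Its log2 fold change of 0.03 ± 0.03 (SE) did not pass either (limma adjusted p = 0.459), and it turned to -0.01 and -0.03 under median-ratio scaling and quantile normalization. NRF2 is controlled largely through the stability of its protein, which transcript levels do not measure.

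OSGIN1, an oxidative stress-induced growth inhibitor that was listed in the same role group, was the only gene of that group called higher. It was at 10.94 and 13.90 FPKM in the PTP2 libraries and at 4.37 and 4.13 FPKM in the SCR libraries, so both PTP2 values stood well above both SCR values, with the wider spread in PTP2. The mean was 2.92-fold higher (log2 fold change 1.35 ± 0.12 SE), with a limma adjusted p of 0.00228, above the study's stricter limit. Without SCR replicate 1 or SCR replicate 2 the limma adjusted p was 0.0695 or 0.0724.

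Glutathione is a small thiol that cells hold at high concentration and use to reduce peroxides and to tag electrophiles. Its first step of synthesis is catalysed by glutamate-cysteine ligase, made of the catalytic subunit GCLC and the modifier subunit GCLM, and glutathione reductase (GSR) returns the oxidised form to the reduced form with NADPH. GSR was at 34.68 and 34.71 FPKM in the PTP2 libraries and at 19.52 and 19.70 FPKM in the SCR libraries. The 2 libraries of each group were nearly equal and the groups lay far apart, at a 1.77-fold higher mean in PTP2 (log2 fold change 0.79 ± 0.03 SE, limma adjusted p = 0.000406). GCLM rose 1.74-fold, from 9.06 ± 0.156 FPKM in SCR to 15.8 ± 0.417 FPKM in PTP2 (SD, n = 2), with a limma adjusted p of 0.000611. GCLC did not pass the test, at 15.6 ± 0.0212 FPKM in SCR and 14 ± 1.0 FPKM in PTP2 (SD, n = 2, limma adjusted p = 0.0929). The modifier subunit's transcript therefore went from 0.586 and 0.573 of the catalytic subunit's in the SCR libraries to 1.06 and 1.21 of it in the PTP2 libraries.

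Glutathione peroxidases use glutathione to reduce hydrogen peroxide and lipid peroxides, and GPX1, GPX3 and GPX4 carry selenocysteine in their active sites. GPX4, which protects membranes from lipid peroxidation and blocks ferroptosis, was the most abundant, at 291.16 and 288.42 FPKM in PTP2 and at 270.44 and 254.48 FPKM in SCR. The groups did not overlap, and the difference of 0.14 on the log2 scale did not pass the test (limma adjusted p = 0.0547). It did pass when the spread was modelled as a trend on mean expression (0.0327), when genes of low value were left out (0.0411) and without SCR replicate 1 (0.0408). Under median-ratio scaling the log2 fold change was 0.10 (limma adjusted p = 0.16), and under quantile normalization it was 0.00 (0.951).

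GPX3, the secreted form, had the largest log2 fold change of these enzymes but a low level, at 1.11 and 0.95 FPKM in PTP2 and at 0.29 and 0.51 FPKM in SCR. About 67 reads in PTP2 and 27 in SCR stand behind these values, a ratio of 2.56 with a 95% counting interval of 1.61 to 4.16. The limma adjusted p was 0.0141, and it rose to between 0.0514 and 0.15 when any 1 of the 4 libraries was left out. GPX8, an endoplasmic reticulum peroxidase, fell 1.47-fold from 36.0 ± 1.38 to 24.5 ± 0.41 FPKM (SD, n = 2, limma adjusted p = 0.00154). GPX1, the cytosolic form, fell 1.27-fold from 244 ± 5.61 to 192 ± 15.1 FPKM (SD, n = 2, limma adjusted p = 0.0177). The GPX1 call was lost without PTP2 replicate 2, SCR replicate 1 or SCR replicate 2, at limma adjusted p-values of 0.0556, 0.174 and 0.146.

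Glutathione transferases join glutathione to electrophiles, and 2 of the 6 rose while 1 fell. MGST1, a membrane-bound transferase that also reduces lipid peroxides, was the most abundant, at 510.91 and 481.92 FPKM in PTP2 and at 284.00 and 272.03 FPKM in SCR. Both PTP2 values exceeded both SCR values, and the mean was 1.79-fold higher (log2 fold change 0.83 ± 0.05 SE, limma adjusted p = 0.000817). GSTO1, an omega-class transferase that also reduces dehydroascorbate (chr10:104254194-104267464, plus strand, Gene ID 9446), was at 175.08 and 172.53 FPKM in PTP2 and at 74.35 and 74.04 FPKM in SCR. The replicates were almost identical and the PTP2 mean was 2.34-fold higher (log2 fold change 1.22 ± 0.03 SE, limma adjusted p = 0.00026). Its promoter window holds both of the GSTO1 cores printed above.

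MGST3, the third microsomal relative, went the other way and fell 1.58-fold from 114 ± 0.148 to 72.0 ± 2.65 FPKM (SD, n = 2, limma adjusted p = 0.000892). GSTP1, the pi-class transferase often abundant in tumours, did not pass the test at 184 ± 2.46 FPKM in PTP2 and 176 ± 4.73 FPKM in SCR (SD, n = 2, limma adjusted p = 0.183), and its log2 fold change of 0.07 became -0.05 under quantile normalization. MGST2 and GSTM3 were below 1 FPKM in all 4 libraries and did not pass the test. About 36 MGST2 reads in PTP2 and 14 in SCR gave a ratio of 2.65 with a 95% counting interval of 1.39 to 5.32. GSTM3 values of 0.47 and 0.35 FPKM in PTP2 overlapped those of 0.31 and 0.42 FPKM in SCR.

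All 3 of the members that belong to the thioredoxin system rose, beside 41.1% called higher among genes with a mean of at least 1 FPKM. The mitochondrial thioredoxin TXN2 and its reductase TXNRD2 fell (log2 fold changes -0.43 and -0.29, limma adjusted p = 0.0063 and 0.0189). Both are from the list of other genes and were named after their values were seen. Thioredoxin (TXN) reduces disulfides in proteins, thioredoxin reductase 1 (TXNRD1) is the selenoenzyme that recharges it with NADPH, and sulfiredoxin (SRXN1) repairs overoxidised peroxiredoxins. TXNRD1 (chr12:104215779-104350307, plus strand, Gene ID 7296) was at 192.61 and 200.09 FPKM in the PTP2 libraries and at 61.12 and 62.64 FPKM in the SCR libraries. Both PTP2 values stood far above both SCR values, and this was the largest rise among the 40 genes by mean FPKM and on the log2(FPKM + 1) scale, 3.17-fold (log2 fold change 1.65 ± 0.04 SE, limma adjusted p = 0.000243). TXN was at 416.91 and 411.99 FPKM in PTP2 and at 214.30 and 219.70 FPKM in SCR. That rise was 1.91-fold with no overlap (log2 fold change 0.93 ± 0.03 SE, limma adjusted p = 0.000379). SRXN1 rose 1.30-fold, from 18.2 ± 0.778 to 23.6 ± 0.248 FPKM (SD, n = 2, limma adjusted p = 0.00414), and the limma adjusted p was 0.063 without PTP2 replicate 1 and 0.0674 without PTP2 replicate 2. In the annotation 84.7% of the 50-base words of the SRXN1 transcript are shared with AL121758.1, an overlapping gene on the same strand, so the reads of both cannot be told apart. Summed over the 3 genes, the level was 633 and 636 FPKM in PTP2 and 293 and 301 FPKM in SCR.

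Peroxiredoxins are the abundant thiol peroxidases that thioredoxin serves, and 4 of the 6 rose while 1 fell. PRDX1, the main cytosolic form, was at 508.53 and 493.49 FPKM in PTP2 and at 378.67 and 373.10 FPKM in SCR. This was a 1.33-fold rise with no overlap (log2 fold change 0.41 ± 0.03 SE, limma adjusted p = 0.00166). PRDX2, its close cytosolic relative, was at 103.54 and 101.11 FPKM in PTP2 and at 57.70 and 52.77 FPKM in SCR. It had the largest change of the family, 1.85-fold (log2 fold change 0.88 ± 0.06 SE, limma adjusted p = 0.001), and its share of the summed peroxiredoxin level went from 5.67% and 5.36% in SCR to 8.69% and 8.77% in PTP2.

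PRDX6, which uses glutathione and repairs phospholipids, rose 1.23-fold from 84.0 ± 0.566 to 103 ± 1.17 FPKM (SD, n = 2, limma adjusted p = 0.00284). PRDX4, in the endoplasmic reticulum, rose 1.24-fold from 101 ± 7.2 to 125 ± 1.23 FPKM (SD, n = 2, limma adjusted p = 0.0175). The call for PRDX4 was lost without PTP2 replicate 1 or PTP2 replicate 2, at limma adjusted p-values of 0.157 and 0.143. PRDX5, found in mitochondria, peroxisomes and cytosol, fell 1.22-fold from 301 ± 5.59 to 248 ± 11.1 FPKM (SD, n = 2, limma adjusted p = 0.0107), with limma adjusted p-values of 0.0535, 0.115 and 0.097 without PTP2 replicate 2, SCR replicate 1 and SCR replicate 2. PRDX3, the mitochondrial form, did not pass the test at 92.0 ± 1.55 FPKM in PTP2 and 84.4 ± 2.35 FPKM in SCR (SD, n = 2, limma adjusted p = 0.0543).

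Superoxide dismutases turn superoxide into hydrogen peroxide, SOD1 mainly in the cytosol and SOD2 in mitochondria, and catalase (CAT) breaks hydrogen peroxide down in peroxisomes. SOD1 was at 211.79 and 197.42 FPKM in PTP2 and at 150.57 and 155.04 FPKM in SCR, a 1.34-fold rise with no overlap (log2 fold change 0.42 ± 0.05 SE, limma adjusted p = 0.00427). Without SCR replicate 1 or SCR replicate 2 its limma adjusted p was 0.0789 or 0.0695. SOD2, the most abundant of the 3, was at 274.13 and 280.18 FPKM in PTP2 and at 231.51 and 231.55 FPKM in SCR, a rise of 1.20-fold with no overlap (log2 fold change 0.26 ± 0.03 SE, limma adjusted p = 0.00427). CAT did not pass the test at 32.5 ± 0.884 FPKM in PTP2 and 34.8 ± 0.339 FPKM in SCR (SD, n = 2, limma adjusted p = 0.0834). It was called lower under median-ratio scaling (log2 fold change -0.14, limma adjusted p = 0.028) and under quantile normalization (-0.16, limma adjusted p = 0.0276).

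NADPH supply was mixed. TALDO1 and TKT, transaldolase and transketolase, run the non-oxidative arm of the pentose phosphate pathway, PGD makes NADPH in its oxidative arm, and ME1 makes NADPH from malate in the cytosol. TALDO1 rose 1.59-fold, from 71.4 ± 5.14 to 113 ± 4.41 FPKM (SD, n = 2, limma adjusted p = 0.00292), with limma adjusted p-values of 0.064 and 0.0564 without PTP2 replicate 1 and PTP2 replicate 2. PGD fell 1.24-fold, from 121 ± 0.792 to 97.7 ± 3.63 FPKM (SD, n = 2, limma adjusted p = 0.00537), with limma adjusted p-values of 0.0746 and 0.0773 without SCR replicate 1 and SCR replicate 2. TKT, the most abundant of the 4, was at 196.95 and 199.66 FPKM in PTP2 and at 199.79 and 195.21 FPKM in SCR. These values overlapped, and the log2 fold change of 0.01 became -0.12 under quantile normalization (limma adjusted p = 0.0443).

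ME1 was at 0.03 and 0.00 FPKM in the PTP2 libraries and at 1.03 and 1.02 FPKM in the SCR libraries. It was a low gene in both groups and was nearly undetected in PTP2, with an estimated 2 reads there in all and 135 in SCR. The ratio of PTP2 to SCR reads, set for depth, was 0.0153 with a 95% interval of 0.00183 to 0.0562 that covers counting error only. The fitted log2 fold change of -1.0 ± 0.03 SE (limma adjusted p = 0.000359) is on the log2(FPKM + 1) scale, which compresses low genes, and it was -3.30 with a pseudocount of 0.1.

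**Figure D2:**
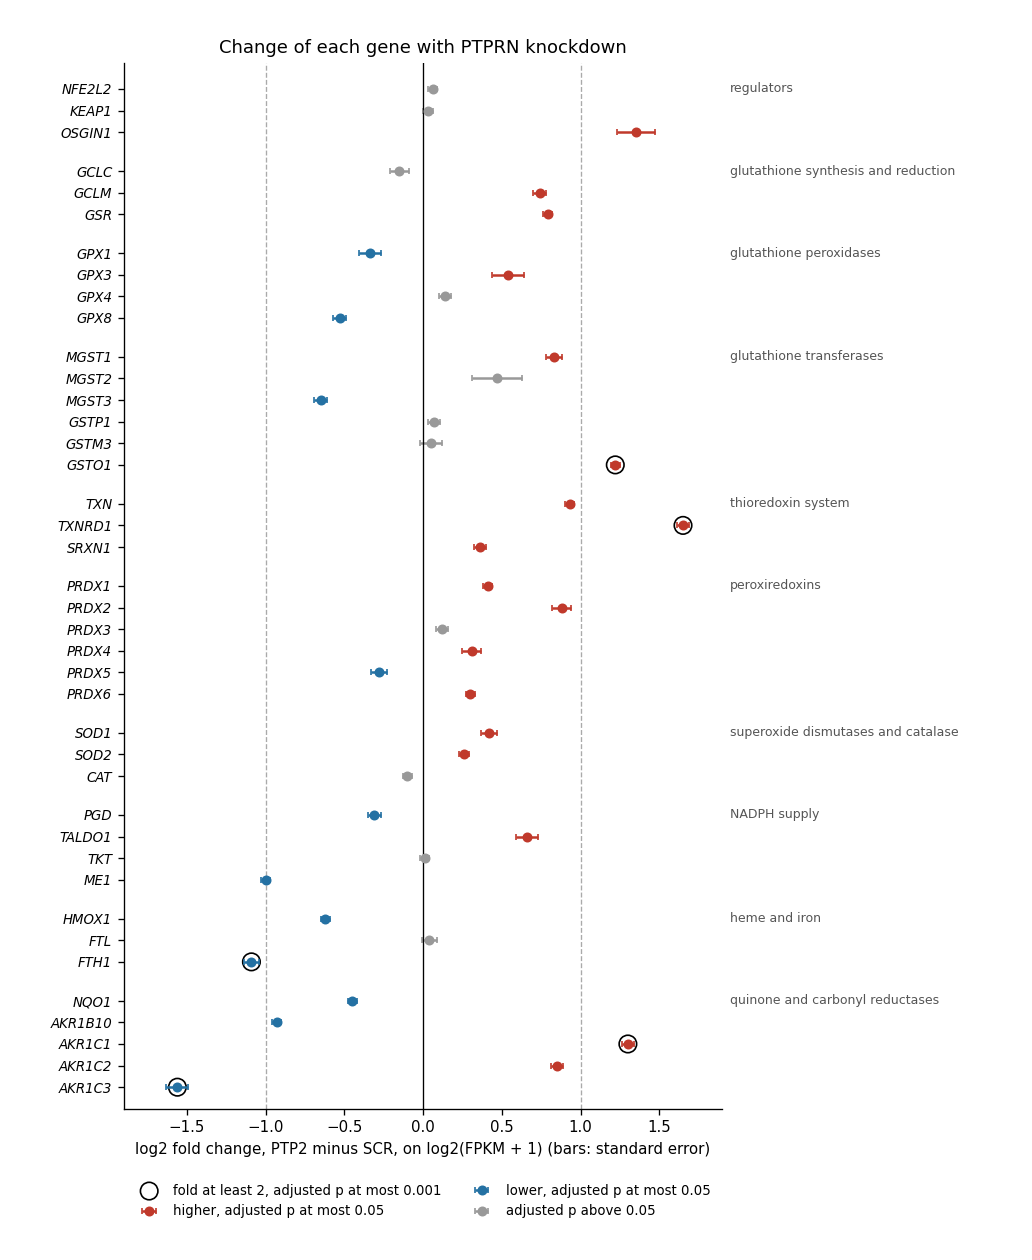
Log2 fold change of PTP2 against SCR for each gene on the log2(FPKM + 1) scale, grouped by role, with bars for the standard error of the limma fit and colours for the call. The 5 circled genes, TXNRD1, AKR1C1 and GSTO1 to the right and FTH1 and AKR1C3 to the left, passed a fold of 2 and an adjusted p of 0.001.

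Of the 3 heme and iron genes 2 fell and 1 did not pass the test. Heme oxygenase 1 (HMOX1) breaks heme down to biliverdin, carbon monoxide and iron, and the ferritin heavy and light chains (FTH1 and FTL) together form the shell in which iron is stored. FTH1 (chr11:61964285-61967660, minus strand, Gene ID 2495) was at 6681.49 and 6223.48 FPKM in the PTP2 libraries and at 13457.29 and 13918.88 FPKM in the SCR libraries. It ranked first of all genes in each library, and both PTP2 values lay below both SCR values, a fall of 2.12-fold (log2 fold change -1.09 ± 0.05 SE, limma adjusted p = 0.000573). FTH1 took 3.17% and 3.32% of the summed FPKM in SCR and 1.5% and 1.42% in PTP2. Since the first rank is given the same value in every library by quantile normalization, its log2 fold change there was 0.00 by construction.

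FTL, by contrast, was at 2344 ± 86.2 FPKM in PTP2 and 2283 ± 91.1 FPKM in SCR (SD, n = 2), and the groups overlapped (limma adjusted p = 0.566). It was called higher under quantile normalization (log2 fold change 0.25, limma adjusted p = 0.0478) and had a log2 fold change of -0.01 under median-ratio scaling. The ratio of heavy to light chain transcript was 5.73 and 6.27 in the SCR libraries and 2.78 and 2.73 in the PTP2 libraries, a value that does not depend on library scaling. HMOX1, widely used as a readout of NRF2 activity and also controlled by heme through BACH1, fell 1.55-fold from 55.8 ± 0.898 to 36.0 ± 0.41 FPKM (SD, n = 2, limma adjusted p = 0.000668). FTH1 shares 78.7% of its 50-base words with other genes. BEST1, which overlaps it on the opposite strand, holds 62.3% of them all, and ferritin pseudogenes hold others. BEST1 itself was at 3.96 and 4.61 FPKM in PTP2 and at 1.78 and 1.65 FPKM in SCR, far below FTH1 and in the opposite direction.

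The quinone and carbonyl reductases split, with 2 higher and 3 lower. NQO1 reduces quinones in a single step that avoids radicals, AKR1B10 reduces aliphatic and aromatic aldehydes, and the AKR1C enzymes reduce ketosteroids and lipid aldehydes. AKR1C1, AKR1C2 and AKR1C3 lie beside each other on chromosome 10, from the start of AKR1C1 at 4963262 to the end of AKR1C3 at 5107686. AKR1C1 (Gene ID 1645) was at 356.96 and 343.34 FPKM in PTP2 and at 144.20 and 138.69 FPKM in SCR. It rose 2.48-fold with no overlap (log2 fold change 1.30 ± 0.04 SE, limma adjusted p = 0.000345).

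AKR1C3 (Gene ID 8644), the member that also makes testosterone and prostaglandin F, was at 16.39 and 14.40 FPKM in PTP2 and at 47.05 and 47.73 FPKM in SCR. The fall was 3.08-fold with no overlap (log2 fold change -1.56 ± 0.07 SE, limma adjusted p = 0.000551). AKR1C2 rose 1.92-fold from 7.03 ± 0.099 to 13.5 ± 0.58 FPKM (SD, n = 2, limma adjusted p = 0.000627). Within each library AKR1C3 made up 23.7% and 24.7% of the summed AKR1C level in SCR but 4.23% and 3.88% in PTP2, while AKR1C1 made up 72.8% and 71.7% in SCR and 92.2% and 92.6% in PTP2.

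The sequences of these neighbours are alike enough for some reads to be placed on the wrong gene. In the annotation 50.8% of the 50-base words of the AKR1C2 transcript also occur in AKR1C1 transcripts. Counted on a single coding transcript each, 20.1% of the words of AKR1C1 and 15.6% of those of AKR1C3 occur in any other gene. The AKR1C1 transcript counted is 858 bases long, against 1379 bases in the deposited data. The AKR1C1 share may therefore be too low and cannot be compared with that of AKR1C2. AKR1C2 relative to AKR1C1 was 0.039 and 0.0382 in the PTP2 libraries and 0.0483 and 0.0512 in the SCR libraries. The part of shared reads in the AKR1C2 rise was not tested. AKR1C1 and AKR1C3 moved in opposite directions in spite of the shared words.

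NQO1, the classical NRF2 target, fell 1.36-fold from 154 ± 1.19 to 112 ± 1.22 FPKM (SD, n = 2, limma adjusted p = 0.00111). AKR1B10 fell 2.20-fold from 7.02 ± 0.00707 to 3.20 ± 0.0636 FPKM (SD, n = 2, limma adjusted p = 0.00036), with a log2 fold change of -0.93 on the log2(FPKM + 1) scale, short of the threshold of a fold of 2. The level of TXNRD1 relative to NQO1 was 0.396 and 0.41 in the SCR libraries and 1.70 and 1.79 in the PTP2 libraries. HMOX1 relative to TXNRD1 went from 0.923 and 0.88 to 0.185 and 0.181.

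**Figure D3:**
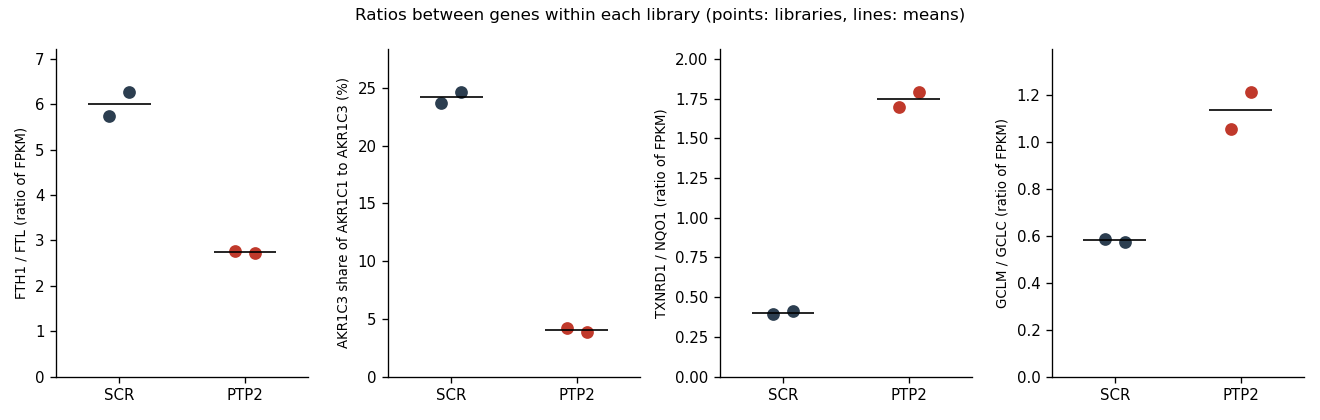
Ratios between genes within each library, with points for the 2 libraries of each group and lines for their means, on linear axes from 0. The FTH1 to FTL ratio and the AKR1C3 share of the summed AKR1C genes were lower in both PTP2 libraries, and the TXNRD1 to NQO1 and GCLM to GCLC ratios were higher in both.

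**Figure D4:**
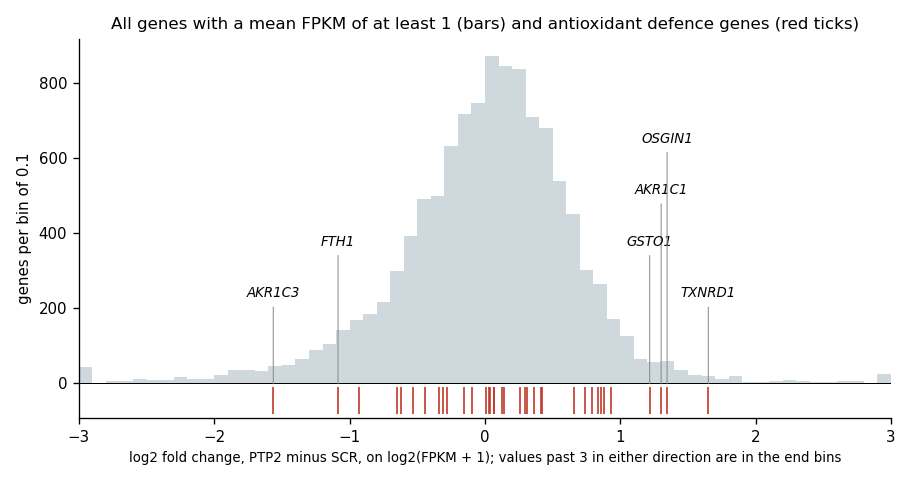
Distribution of log2 fold changes of the 11272 genes with a mean of at least 1 FPKM (bars, genes per bin of 0.1) with the 36 antioxidant defence genes above that mean as red ticks. The ticks spread across the whole body of the distribution, and the 6 named genes lie past 1 in either direction.

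Other genes of the same pathways were then taken as 8 lists with 128 genes, of which 124 had a value. Of these 37 rose and 45 fell (29.8% and 36.3%, against 30.8% and 27.1% of all genes tested and 41.1% and 33.5% of genes with a mean of at least 1 FPKM, a level that 99 of the 124 reached), and 24 to 28 rose and 30 to 33 fell when each library was left out in turn. In the following counts the ranges in brackets come from those same omissions.

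Among 13 regulators and partners of NRF2, 5 rose (3 to 5) and 2 fell (1 to 2). SQSTM1 (p62), an autophagy receptor that binds KEAP1 and is itself an NRF2 target, was at 576.04 and 566.07 FPKM in PTP2 and at 169.43 and 164.03 FPKM in SCR. It rose 3.42-fold (log2 fold change 1.77, limma adjusted p = 0.00021), a little more than TXNRD1. BACH1, a repressor that competes with NRF2 at HMOX1, and NFE2L1, a related factor, are named after their values were seen. BACH1 was at 10.47 and 10.72 FPKM in PTP2 and at 5.79 and 6.71 FPKM in SCR and was called higher, while NFE2L1 was at 73.89 and 75.65 FPKM in PTP2 and at 138.94 and 137.44 FPKM in SCR and was called lower.

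Of 21 other enzymes and transporters linked to NRF2, 6 rose (2 to 4) and 10 fell (7 to 9). AIFM2 (FSP1), which protects membranes from lipid peroxidation apart from glutathione, rose from 4.85 and 4.70 FPKM in SCR to 17.96 and 18.13 FPKM in PTP2. AKR1B1, the aldose reductase related to AKR1B10, fell from 11923.02 and 11910.09 FPKM, where it ranked second of all genes, to 3398.54 and 3317.79 FPKM. The transporter ABCC3 fell from 14.42 and 14.49 to 2.57 and 2.21 FPKM, and the epoxide hydrolase EPHX1 fell from 121.85 and 122.58 to 37.04 and 33.87 FPKM. The cystine carrier SLC7A11, named after its values were seen, fell from 8.06 and 8.82 to 4.38 and 4.60 FPKM. SLC3A2, from the list of other glutathione genes and also named after its values were seen, went the other way. It rose from 62.05 and 62.40 FPKM in SCR to 115.15 and 109.52 FPKM in PTP2.

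Of 23 other glutathione genes with a value, 9 rose (8 to 9) and 7 fell (4 to 5). Glutaredoxin (GLRX), which removes glutathione from proteins, rose from 52.65 and 47.99 FPKM in SCR to 104.35 and 100.23 FPKM in PTP2, and the transferase GSTA4 fell from 10.04 and 9.75 to 2.68 and 2.69 FPKM. Of 14 other thioredoxin and methionine sulfoxide genes, 2 rose (1 to 2) and 6 fell (2 to 5). TXNIP, which binds and inhibits thioredoxin, was at 9.23 and 9.52 FPKM in PTP2 and at 73.55 and 76.14 FPKM in SCR, a 7.98-fold fall (log2 fold change -2.87, limma adjusted p = 0.000149) beside the rise of TXN and TXNRD1.

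Of 15 other NADPH supply genes, 6 rose (4 to 5) and 8 fell (5 to 8). IDH1, which makes NADPH in the cytosol, fell from 113.44 and 114.82 FPKM to 50.79 and 50.10 FPKM, NADK2, the mitochondrial NAD kinase, from 23.09 and 24.05 to 8.40 and 8.06 FPKM, and H6PD, the enzyme of the endoplasmic reticulum, from 21.19 and 21.25 to 9.39 and 9.76 FPKM. NNT, the mitochondrial transhydrogenase, rose from 2.87 and 3.06 to 8.49 and 8.59 FPKM.

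Of 16 genes for sources of reactive oxygen species with a value, 3 rose (1 when any library was left out) and 4 fell (1 to 3). Of 15 iron and ferroptosis genes with a value, 4 rose (1 to 3) and 4 fell (3), and STEAP3, a ferrireductase of endosomes, fell from 71.50 and 72.87 to 35.24 and 34.03 FPKM. The list named selenoprotein synthesis holds 7 genes, of which 2 rose (1 to 2) and 4 fell (2 to 3). TXNRD1, GPX1, GPX3 and GPX4 belong to the selenoproteins. The part of each listed gene in making them was not tested. SEPHS1 and TRNAU1AP had log2 fold changes of 0.43 and 0.44, and EEFSEC, the elongation factor for selenocysteine, had one of -0.50.

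**Figure D5:**
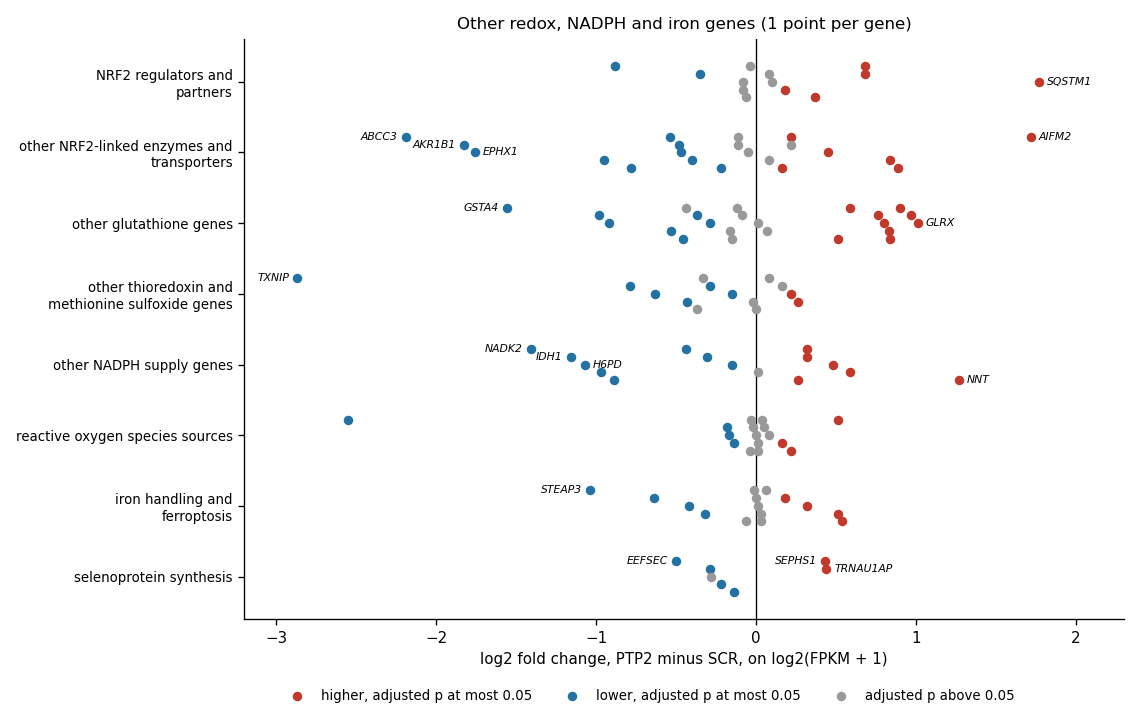
Log2 fold change of PTP2 against SCR for the 124 other genes of the same pathways on the log2(FPKM + 1) scale, 1 point per gene in 8 lists, coloured by call. Each list holds genes on both sides of 0, with TXNIP farthest to the left and SQSTM1 and AIFM2 farthest to the right.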

How the data were processed

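Libraries were grouped from their titles and genotypes. Sequencing used a BGISEQ-500 and gave single-end reads 50 bases long. The submitters' processing notes name HISAT2 2.1.0 and hg19, with no role given. Gene positions in the deposited table, however, lay within 1000 bases of RefSeq GRCh38 at both ends for 77.2% of genes. The authors deposited FPKM, and 0 of 66380 values differed between their 2 tables. The counting program and its use of strand are not given in the sources used here. Their columns of group averages and of DEGseq and PossionDis comparisons (fold changes, p-values) were not used.

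Values were taken as log2(FPKM + 1) and tested with limma 3.58.1 (R 4.3.3; lmFit and eBayes) over 16595 genes, with group as the only term and Benjamini-Hochberg adjustment over all of them (two-sided), which is the adjusted p given throughout. Residual and prior degrees of freedom came to 3.72. Fold changes on this scale understate those of low genes, and a fold given as such is a ratio of mean FPKM. The fit was tested on simulated data. Read numbers were estimated from the steps between low FPKM values of 66 to 84 short genes with a single transcript, and intervals from them cover counting error only. Sequence sharing was counted as 50-base words of GENCODE 29 transcripts, a check chosen after seeing the data. For each member it used a single coding transcript, the nearest in length to the deposited length. Promoters came from the RefSeq table for GRCh38.p14, and protein sequences were not used here. Ratios between genes within a library were not in the plan. They restate the changes of the genes in them and are no separate test. Library values were given for genes past both of the study's thresholds, for NFE2L2 and KEAP1, for the largest change and highest level in each role, and where a value needed it. In each list of other genes, those called with a fold of at least 2, or otherwise the 3 largest changes, were named, except where a gene is not reported here. The members and lists were chosen with earlier results of these data known. Another pseudocount, filter, scaling, spread model, replicate block and the omission of each library were tried.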

Additional observations from a re-analysis of the deposited data

How the results depend on the processing

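With all 4 libraries in the fit, 18 to 20 of the genes were called higher and 11 to 12 lower under the 6 other settings, and 1 of the 29 calls was lost, that of FTH1 under quantile normalization, by construction; GPX3 had no value under the filter at 1 FPKM. The number past a fold of 2 and an adjusted p of 0.001 was less stable. It was 0 higher and 0 lower with a pseudocount of 0.1 and with a replicate block, where 0 of all genes tested passed both limits in limma, although 5 and 4 members (pseudocount 0.1) and 4 and 2 (block) had an unadjusted p below 0.05 at that fold. It was 1 lower under quantile normalization. Replicate numbers were shared by the groups but nothing in the labels pairs them, the correlation of same-numbered deviations was 0.0421, and the block left the counts at an adjusted p of 0.05 at 18 and 11. The median log2 fold change of the 40 genes was 0.09 under median-ratio scaling and 0.12 under quantile normalization.

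Leaving out each library in turn gave 14 to 16 genes higher, 8 to 12 lower, 0 past the stricter limits in either direction (all genes: 3275 to 3375 higher, 2884 to 2957 lower and 0 past the stricter limits, so the last is set by the smaller fit), and a median of 0.10 to 0.17. Calls of 9 genes were lost in at least 1 omission, and 19 of 29 held under all 10 alternatives. Signs turned for KEAP1 (-0.01 median-ratio, -0.03 quantile), GSTP1 (-0.05 quantile), TKT (-0.04 median-ratio, -0.12 quantile, -0.01 to 0.02 over the omissions), FTL (-0.01 median-ratio, -0.00 to 0.08 over the omissions), GSTM3 (-0.01 to 0.11 over the omissions) and FTH1 (0.00 quantile, by construction). The cause of the other changes was not tested. Of the lists of other genes, 2 of 16 counts moved by more than 1.5 times with all libraries, both to 2 lower: reactive oxygen species sources with the filter at 1 FPKM, and selenoprotein synthesis with a pseudocount of 0.1. Depth limits ME1, MGST2, GPX3 and GSTM3, each with fewer than 100 reads in 1 group or both.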

Other observations

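Several of these genes share sequence with others, which sets how firmly their FPKM values can be read. Of the 41 transcripts, 19 share no 50-base word with another gene, 12 share at least 10% and 4 share at least 50%, namely SRXN1, FTH1, SOD2 and AKR1C2. SOD2 shares 54.1% of its words, 42.2% with ACAT2 on the opposite strand and 33.6% with SOD2-OT1 on the same strand. The SOD2 transcript counted is 2558 bases long, against 4259 bases in the deposited data, so these shares may not hold for the transcript measured. Of all annotated SOD2 exon bases, 6.3% overlap ACAT2 and 5.2% overlap SOD2-OT1. ACAT2 was at 15.24 and 11.51 FPKM in PTP2 and at 25.58 and 25.89 FPKM in SCR, the opposite direction to SOD2. The level of SOD2-OT1 is not given here, and its part in the SOD2 values was not tested. PRDX1 shares 28% with MMACHC, which was between 3.43 and 3.6 FPKM in all 4 libraries, against 373.10 FPKM or more for PRDX1. NQO1 shares 20.9% of its words and PRDX2 26.0%, most of them with antisense genes.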
